A study of Homo sapiens and Mus musculus with 29 samples.

Results

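CEACAM1, CEACAM5, CEACAM6 and CEACAM7 encode cell-surface adhesion proteins of the carcinoembryonic antigen family. They were chosen by gene symbol, and these 4 genes were followed among the 58719 genes of the HPAF-II expression table across 4 groups of primary tumors and 2 groups of metastases. HPAF-II is an established human pancreatic ductal adenocarcinoma (PDAC) cell line, here grown as tumors in the pancreas of NSG mice, which lack functional lymphocytes. RNA-seq data came from 3 control tumors (CRISPR Cas-9-EV, the Cas9 control with no HNF4G edit), 3 tumors labeled FOXA1-OE (lentiviral FOXA1 overexpression) and 15 further samples. The label HNF4G-KO was carried by 4 of these as tumors and 2 as metastases, and the label HNF4G-KO + FOXA1-OE by 5 as tumors and 4 as metastases.

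According to the study's methods, the HNF4G-KO cells are a pool of clones with heterozygotic frameshift mutations in HNF4G, a nuclear receptor of the HNF4 family. A property of those clones and an effect of HNF4G loss cannot be told apart in these samples. The mice were about 8 weeks old by the study's methods. With HNF4G-KO + FOXA1-OE, tumors 2 and 3 were taken from a single mouse and averaged, which leaves 4 mice, and metastases 1 and 2 also shared a mouse, which leaves 3. Nothing says that the reads of host mouse cells were removed.

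CEACAM proteins carry immunoglobulin-like domains, by which they bind each other on the same or on neighboring epithelial cells. CEACAM5 (the clinical tumor marker CEA), CEACAM6 and CEACAM7 are held in the membrane by a glycosylphosphatidylinositol (GPI) anchor, whereas CEACAM1 spans the membrane and, in its long form, has cytoplasmic tyrosine motifs that recruit the phosphatases SHP-1 and SHP-2. CEACAM5 and CEACAM6 are commonly found at raised levels in carcinomas of the gut and pancreas, CEACAM7 is best known from the surface of the normal colon, and CEACAM1 is widely found on epithelial and blood cells.

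The 4 genes lie on chromosome 19 within 887.9 kb (GENCODE 44, GRCh38). CEACAM7 (ENSG00000007306) occupies 41673303 to 41706976 on the minus strand, CEACAM5 (ENSG00000105388) 41708585 to 41730433 on the plus strand, CEACAM6 (ENSG00000086548) 41750977 to 41772211 on the plus strand and CEACAM1 (ENSG00000079385) 42507304 to 42561234 on the minus strand. CEACAM7 and CEACAM5 are 1.6 kb apart and point away from each other, CEACAM6 starts 20.5 kb after CEACAM5, and CEACAM1 lies a further 735.1 kb away.

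To show how far the promoters of the 4 genes share their letters, the bases just before each RefSeq start are given here 5′ to 3′ on the strand of the gene (RefSeq, GRCh38.p14). Each window has 250 bases, from which bases that GENCODE 44 counts as exon are left out at the 3′ end (40 for CEACAM5, 10 for CEACAM6 and 97 for CEACAM7), except that the last base printed for CEACAM5, which ends a motif, is the first base of its exon. Capitals mark the motifs CAAAG (the core of an HNF4 site), CACGTG (the E-box bound by USF factors) and GGGCGG (bound by SP1), on either strand.
CEACAM5, chr19:41708376-41708585, plus strand: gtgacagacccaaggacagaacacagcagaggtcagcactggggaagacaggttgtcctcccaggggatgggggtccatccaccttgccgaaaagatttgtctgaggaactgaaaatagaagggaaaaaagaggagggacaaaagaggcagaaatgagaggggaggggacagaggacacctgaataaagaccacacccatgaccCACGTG
CEACAM6, chr19:41755280-41755519, plus strand: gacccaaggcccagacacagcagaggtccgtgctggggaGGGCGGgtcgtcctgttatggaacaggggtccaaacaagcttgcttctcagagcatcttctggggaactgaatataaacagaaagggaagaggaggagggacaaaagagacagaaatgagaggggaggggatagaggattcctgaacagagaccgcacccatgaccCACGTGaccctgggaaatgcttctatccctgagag
CEACAM7, chr19:41688368-41688520, minus strand: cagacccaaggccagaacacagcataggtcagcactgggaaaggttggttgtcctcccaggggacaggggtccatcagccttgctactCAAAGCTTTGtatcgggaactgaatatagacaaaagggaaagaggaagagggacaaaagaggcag
CEACAM1, chr19:42528482-42528731, minus strand: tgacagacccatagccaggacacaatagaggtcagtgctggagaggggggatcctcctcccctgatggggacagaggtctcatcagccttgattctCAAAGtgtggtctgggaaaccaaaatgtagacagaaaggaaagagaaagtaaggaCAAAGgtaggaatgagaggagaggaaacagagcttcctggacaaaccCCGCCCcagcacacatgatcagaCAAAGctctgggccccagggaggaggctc

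Over the whole windows the promoters of CEACAM5 and CEACAM7 had 84.0% of 244 aligned bases in common, those of CEACAM6 and CEACAM7 80.2%, and those of CEACAM5 and CEACAM6 78.1%. The promoter of CEACAM1 had 69.6% to 75.8% of its aligned bases in common with the other three. CACGTG stood at almost the same distance from the start in CEACAM5 (-46 to -41) and CEACAM6 (-45 to -40), and in neither of the others. It is found in 6.34% of the 35116 RefSeq promoter windows of this length. CAAAG was found 3 times in CEACAM1 and 2 times in CEACAM7, where the copies on opposite strands adjoin. This short motif is in 42.1% of all windows. GGGCGG was found in CEACAM1, on the opposite strand, and in CEACAM6, and in 42.6% of all windows. The longer HNF4 motif CAAAGTCCA (0.325% of windows) and the FOXA motifs TGTTTAC (2.98%) and TGTTTGC (3.23%) were in none of the 4 windows, which says only that these letters are not in this stretch. GENCODE 44 also lists transcripts of CEACAM1, CEACAM6 and CEACAM7 that start farther out than RefSeq does.

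The coding sequences are alike as well, which matters for reads of 50 bases. Over the first 420 coding bases, CEACAM5 and CEACAM6 had 91.0% identical bases, CEACAM1 and CEACAM5 91.2%, and CEACAM1 and CEACAM6 91.0%, against 80.3% to 81.3% for CEACAM7 with any of them. The longest coding runs shared without a mismatch exceed a read for the 3 pairs among CEACAM1, CEACAM5 and CEACAM6 (65 to 71 bases) and are 26 to 36 bases for the pairs with CEACAM7, and the runs of CEACAM6 with its closest relatives are shown for that reason, in lower case with no part marked. They lie at coding bases 752 to 816 of both CEACAM5 and CEACAM6, and at coding bases 289 to 359 of both CEACAM1 and CEACAM6 (GENCODE 44 transcripts).
CEACAM5 and CEACAM6: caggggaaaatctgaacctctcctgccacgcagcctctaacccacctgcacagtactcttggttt
CEACAM1 and CEACAM6: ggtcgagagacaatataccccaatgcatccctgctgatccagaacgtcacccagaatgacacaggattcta

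Of all 50-base windows of their transcripts, 0.98% of those of CEACAM1, 1.48% of those of CEACAM5, 2.58% of those of CEACAM6 and 0% of those of CEACAM7 also occur in another of the 4 genes. Counting any other gene, these shares were 3.28%, 5.24%, 7.22% and 0%. For CEACAM5 and CEACAM6 the largest part of that overlap was with ENSG00000267881, which lies across parts of both genes and was at 0 to 0.697 RPKM. How the authors' counting treated such reads was not tested, so part of the values of CEACAM1, CEACAM5 and CEACAM6 is uncertain. These are shares of windows and not of reads. In HNF4G-KO tumor 4, CEACAM5 and CEACAM6 had 163757 and 173557 reads, against 13065 for CEACAM1. Shared reads could thus make up more of the CEACAM1 value than its share of windows. Their part in the differences of CEACAM1 between groups was not tested.

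RPKM is the number of reads of a gene scaled to its length and to the reads of the library, so levels of different genes can be set side by side. Libraries held 33.1 to 69.6 M counted reads (median 54.5 M), and whole reads were recovered for the 4 genes in every library. Epithelial markers of the cell line were high throughout, with 8 genes summing to 3242 to 6501 RPKM. Host markers are given as values of human genes, in which reads of mouse cells count only where they aligned. Low values of these markers thus do not show that host cells were few. All 4 adipose markers and 4 of 5 granulocyte markers stayed under 1 RPKM in every sample, as did PTPRC, which marks leukocytes. The 5 leukocyte markers summed to 60.7 to 748.6 RPKM, nearly all of it LYZ (mean 545 RPKM over all samples, against 4.63 RPKM for CORO1A and under 1 RPKM for PTPRC, CD68 and LCP1), so that this sum says little about leukocytes. The sum of the 6 pancreas markers was 0.067 to 820 RPKM, the highest in control tumor 2. The 12 host stroma markers, of which COL6A3, DCN and THY1 stayed under 1 RPKM throughout, summed to 51.4 to 188 RPKM in control tumors and 47.5 to 68.6 RPKM in tumors labeled HNF4G-KO, so they were lower on the whole where the CEACAM genes were higher. None of the 4 stroma genes tested was called in that comparison. With the mean log2(RPKM + 1) of the 12 stroma markers as a covariate, all 4 CEACAM genes were called in it (CEACAM5 3.37, CEACAM6 2.16, CEACAM1 0.88 and CEACAM7 1.66 on the log2 scale).

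HNF4G mRNA did not go down with the label. It was at 3.47, 2.48 and 2.57 RPKM in control tumors and at 7.10, 8.42, 5.72 and 7.11 RPKM in tumors labeled HNF4G-KO, a difference of 1.07 on the log2(RPKM + 1) scale (adjusted p = 0.0698, limma). A count over the whole gene does not show a frameshift. FOXA1 mRNA was at 6.32 and 8.18 RPKM in FOXA1-OE tumors 1 and 2 but at 0.763 RPKM in FOXA1-OE tumor 3, within the range of the control tumors (0.519 to 0.932 RPKM). In the metastases labeled HNF4G-KO + FOXA1-OE it was at 0.535, 17.9, 1.3 and 1.56 RPKM.

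CEACAM5 and CEACAM6 were among the abundant mRNAs of these tumors and CEACAM1 was at a middle level, while CEACAM7 was the lowest of the 4 in every sample, at 6.80 RPKM or less. In tumors labeled HNF4G-KO the mRNAs of CEACAM5, CEACAM6 and CEACAM1 were higher than in control tumors, and that of CEACAM7 was called higher only with the filter on low genes. CEACAM5 was 6.09-fold, CEACAM6 3.88-fold and CEACAM1 1.85-fold higher by the group means. In metastases and with FOXA1-OE no member passed the test against its own reference tumors.

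**Figure D1:**
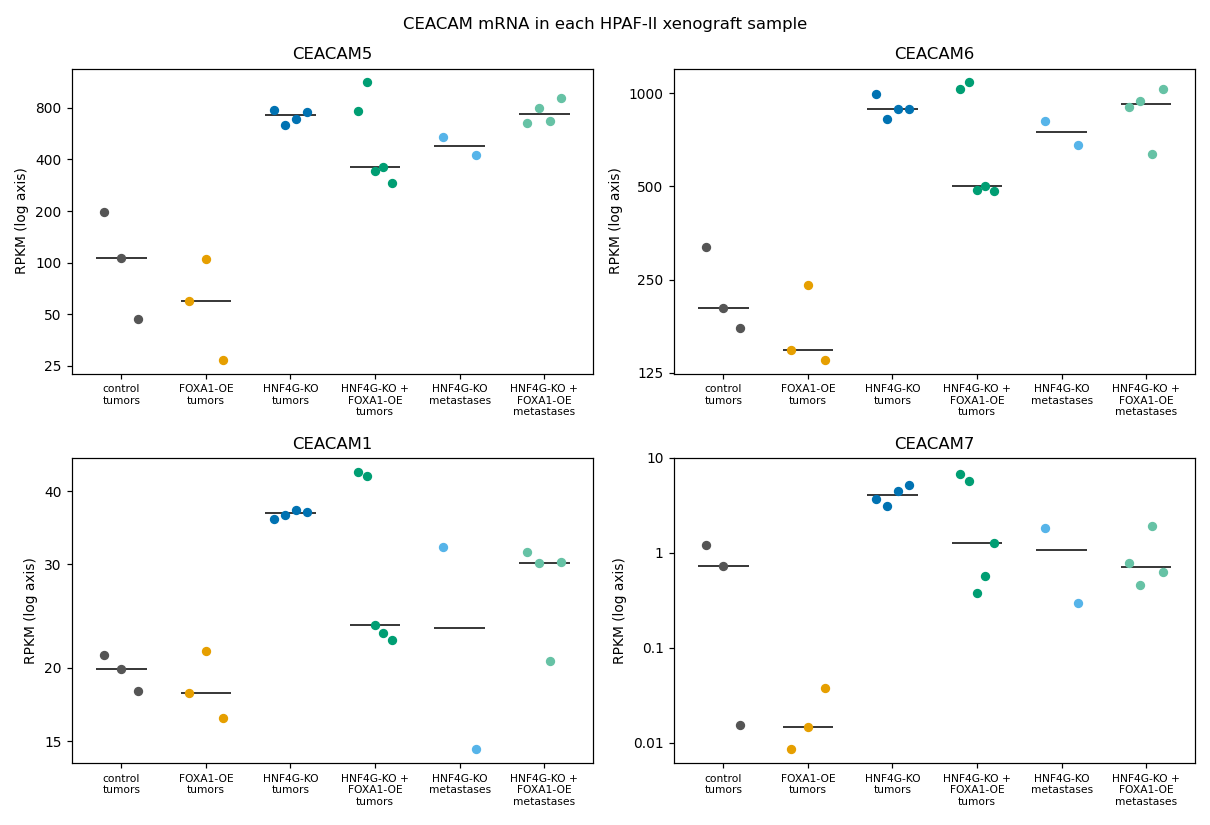
RPKM (log axis, different in each panel) of CEACAM5, CEACAM6, CEACAM1 and CEACAM7 in each sample of the 6 groups. Points are samples and lines are medians. All 4 tumors labeled HNF4G-KO lie above all 3 control tumors in each panel, and the 5 tumors labeled HNF4G-KO + FOXA1-OE fall into 2 high and 3 lower samples.

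The mRNA of CEACAM5, the carcinoembryonic antigen itself, measured 199, 107 and 47.0 RPKM in controls. In the tumors labeled HNF4G-KO it was at 773, 639, 689 and 762 RPKM, so that the lowest of these stood above the highest control. On average it reached 716 ± 63.4 RPKM (SD, n = 4), compared with 118 ± 76.4 RPKM (SD, n = 3) in controls. The difference was 2.82 on the log2(RPKM + 1) scale (SE 0.49, adjusted p = 0.00547, limma), the fifth most positive of the 14269 genes tested in primary tumors. The controls varied by far more than the tumors labeled HNF4G-KO, and the difference was 3.31 without control tumor 1, the highest, and 2.28 without control tumor 3, the lowest.

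CEACAM6, the close GPI-anchored relative, had the highest mean of the 4 genes in each of the 6 groups. It was at 318, 202 and 174 RPKM in control tumors and at 992, 823, 888 and 887 RPKM in tumors labeled HNF4G-KO, again without overlap. Its mean in tumors labeled HNF4G-KO, 898 ± 70.0 RPKM (SD, n = 4), was far from the 231 ± 76.3 RPKM (SD, n = 3) of controls. The difference was 2.00 on the log2 scale (SE 0.30, adjusted p = 0.00241, limma).

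CEACAM7, the third GPI-anchored member, was at 1.20, 0.731 and 0.0153 RPKM in control tumors, which are 181, 68 and 2 reads. It was at 3.70, 3.13, 4.51 and 5.23 RPKM in tumors labeled HNF4G-KO, which are 518 to 888 reads. The third control tumor was thus almost without CEACAM7 mRNA, and the tumors labeled HNF4G-KO were again above all controls. The difference was 1.69 on the log2(RPKM + 1) scale (SE 0.41, adjusted p = 0.0215, limma), a scale that understates the change of a gene this low. CEACAM7 passed the filter of a mean of 1 RPKM only through the groups in which it was high, and with no filter its adjusted p was 0.0617.

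CEACAM1, the transmembrane member, was at 21, 19.9 and 18.3 RPKM in control tumors. It was at 35.8, 36.4, 37.1 and 36.9 RPKM in tumors labeled HNF4G-KO, which had a narrow spread (36.6 ± 0.576 RPKM against 19.7 ± 1.38 RPKM in the controls, SD, n = 4 and n = 3). The difference was 0.86 on the log2 scale (SE 0.20, adjusted p = 0.0183, limma), the smallest among the members.

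CEACAM5, CEACAM6 and CEACAM1 were called higher in this comparison with and without the filter on low genes, and CEACAM7 only with it, so that 4 members were called with the filter and 3 without. With the filter, 6.18% of all genes were called higher and 12.2% were called in either direction. Since CEACAM7 passed only through the groups in which it was high, the count of 4 supports nothing by itself. In all 4 the mice of the groups did not overlap, as was so, in the higher direction, for 25.1% of the genes tested. Two-sided exact permutation tests over mice gave p = 0.0571 for each of the 4, the smallest that 4 against 3 mice can give. The count of called members fell to 2, CEACAM5 and CEACAM6, without control tumor 2, control tumor 3 or HNF4G-KO tumor 3, and to 3 without HNF4G-KO tumor 4.

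**Figure D2:**
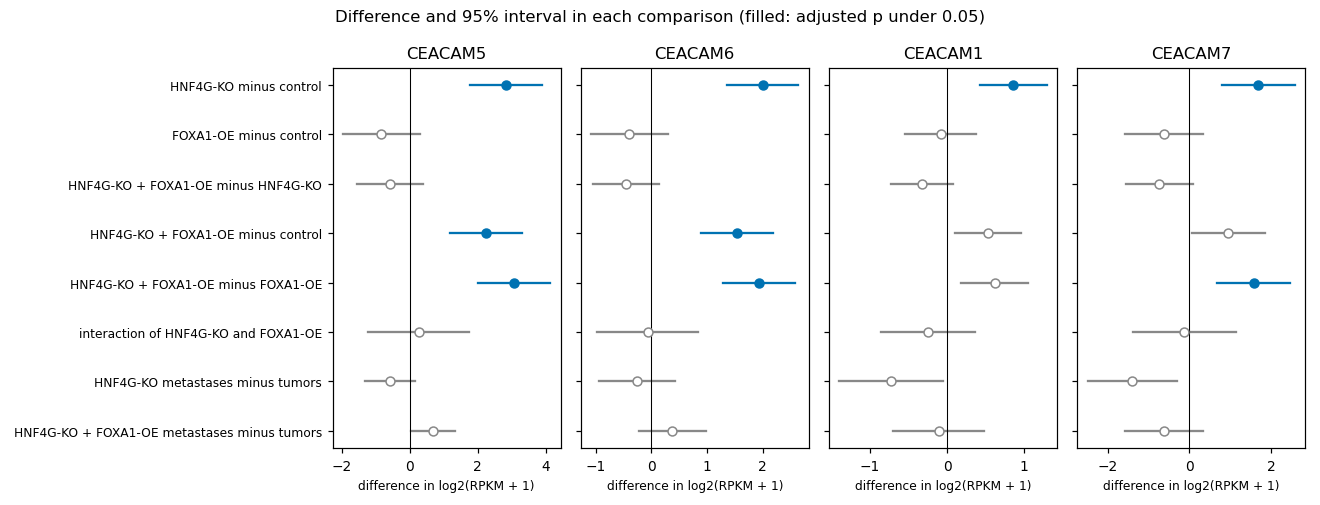
Difference in log2(RPKM + 1) with its 95% interval (limma) for each gene in 8 comparisons. Filled points have an adjusted p under 0.05. The values of HNF4G-KO minus control are 2.82, 2.00, 0.86 and 1.69 from left to right, while all intervals of FOXA1-OE minus control and of the interaction include 0.

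In FOXA1-OE tumors, CEACAM5 was at 59.7, 104 and 27.2 RPKM, CEACAM6 at 149, 240 and 138 RPKM, and CEACAM1 at 18.1, 21.4 and 16.4 RPKM, all ranges that overlap with those of the controls. CEACAM7 was at 0.0086, 0.0148 and 0.0382 RPKM, which are 1, 2 and 4 reads, near the floor of what these libraries can show. Of the 4 members, 0 were called against control tumors, as were 0% of all genes tested (652 genes had an unadjusted p under 0.05 in limma, and no other tool was run). The differences on the log2 scale were -0.84 (95% interval -1.97 to 0.29) for CEACAM5, -0.39 (-1.08 to 0.29) for CEACAM6, -0.08 (-0.55 to 0.38) for CEACAM1 and -0.62 (-1.57 to 0.33) for CEACAM7. These intervals leave room for changes of more than 1 on the log2 scale in 3 of the genes. The library of FOXA1-OE tumor 3, which had no more FOXA1 mRNA than the controls, had the lowest CEACAM5, CEACAM6 and CEACAM1 of the whole primary tumor set. Its HNF4G mRNA was at 0.495 RPKM, against 3.04 and 2.26 RPKM in FOXA1-OE tumors 1 and 2. The leukocyte list, nearly all LYZ, summed to 60.7 RPKM in it, against 582 and 594 RPKM in those tumors. The part of these in its CEACAM values was not tested.

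In tumors labeled HNF4G-KO + FOXA1-OE the 4 mRNAs separated into 2 high tumors and 3 lower ones. CEACAM5 was at 771 and 1126 RPKM in tumors 1 and 2, and at 340, 362 and 293 RPKM in tumors 3, 4 and 5. CEACAM6 was at 1034 and 1084 RPKM against 488, 500 and 482 RPKM. CEACAM1 was at 43.1 and 42.5 RPKM against 23.6, 22.9 and 22.3 RPKM, and CEACAM7 at 6.80 and 5.77 RPKM against 0.383, 0.577 and 1.27 RPKM. This division was seen after the values were known and was not tested. Tumors 2 and 3, which lie on opposite sides of it, came from the same mouse and differed 3.31-fold in CEACAM5, 2.22-fold in CEACAM6, 1.80-fold in CEACAM1 and 15-fold in CEACAM7. Their FOXA1 mRNA was at 5.76 and 23.1 RPKM and their HNF4G mRNA at 6.16 and 6.67 RPKM.

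Against control tumors, CEACAM5 was 2.23 higher on the log2 scale (SE 0.49, adjusted p = 0.0209) and CEACAM6 was 1.54 higher (SE 0.30, adjusted p = 0.0124) in tumors labeled HNF4G-KO + FOXA1-OE. For CEACAM7 the difference was 0.95 (adjusted p = 0.224) and for CEACAM1 it was 0.53 (adjusted p = 0.161, all limma). These 2 called members stand beside 2.14% of all genes called higher and 4.7% called in either direction. The mice did not overlap for CEACAM5, CEACAM6 and CEACAM1, as was so for 6.78% of the genes tested, and overlapped for CEACAM7. Neither call held without control tumor 2 or control tumor 3, where 0 members were called. CEACAM5 was lost without HNF4G-KO + FOXA1-OE tumor 1 (adjusted p = 0.0604). This comparison and that of the tumors labeled HNF4G-KO use the same 3 controls.

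Against FOXA1-OE tumors, which share no sample with the controls, CEACAM5 was 3.07 higher on the log2 scale (SE 0.49, adjusted p = 0.00269) and 8.02-fold by the group means. CEACAM6 was 1.93 higher (SE 0.30, adjusted p = 0.00234) and 3.91-fold by the means. CEACAM7 was 1.58 higher (SE 0.41, adjusted p = 0.034), from the 1 to 4 reads of the FOXA1-OE tumors to 54 to 971 reads. CEACAM1 differed by 0.62 (SE 0.20, adjusted p = 0.0769). CEACAM5 and CEACAM6 were called higher with and without the filter on low genes, and CEACAM7 only with it (adjusted p = 0.0882 without), where 3.32% of all genes were called higher and 7.86% in either direction. In all 4 members the mice did not overlap, as in 5.39% of genes. Without FOXA1-OE tumor 3, in which FOXA1 mRNA was at the level of controls, CEACAM5 (adjusted p = 0.00918) and CEACAM6 (adjusted p = 0.00857) were still called and CEACAM7 was not (adjusted p = 0.063). The call of CEACAM7 was lost in 7 of 14 alternatives. The tumors labeled HNF4G-KO + FOXA1-OE and the fit are the same as in the comparison with control tumors, so the comparisons are not independent.

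No difference with FOXA1-OE was detectable among tumors that carry the HNF4G-KO label. Relative to tumors labeled HNF4G-KO, the differences were -0.59 (95% interval -1.57 to 0.39) for CEACAM5, -0.46 (-1.05 to 0.14) for CEACAM6, -0.74 (-1.56 to 0.08) for CEACAM7 and -0.33 (-0.73 to 0.07) for CEACAM1, with adjusted p from 0.274 to 0.429. None of the 4 was called, against 0.0561% of all genes, and the exact permutation p was 0.143 or more where 0.0286 could be reached. All 4 estimates were negative, and the ranges overlapped in each, with tumors 1 and 2 within or above the range of the tumors labeled HNF4G-KO. The interaction, which asks whether the FOXA1-OE difference depends on the HNF4G label, was 0.25 (-1.24 to 1.75) for CEACAM5, -0.06 (-0.97 to 0.85) for CEACAM6, -0.12 (-1.38 to 1.14) for CEACAM7 and -0.24 (-0.85 to 0.37) for CEACAM1, with 0 of 4 called against 0.035% of all genes. Intervals of this width do not show that the effects are alike.

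The ratios between members within a library are given here as a description. In control tumors there were 1.60, 1.89 and 3.70 CEACAM6 RPKM for each CEACAM5 RPKM, and in FOXA1-OE tumors 2.49, 2.30 and 5.08. In tumors labeled HNF4G-KO the ratio was 1.28, 1.29, 1.29 and 1.16, below all controls and with little spread. In tumors labeled HNF4G-KO + FOXA1-OE it was 1.34, 0.962, 1.43, 1.38 and 1.64. The last of these lay above the lowest control. The metastases labeled HNF4G-KO were at 1.52 and 1.60, and the metastases labeled HNF4G-KO + FOXA1-OE were at 1.38, 1.18, 0.95 and 1.13. The ratio of CEACAM5 to CEACAM1 was 2.57 to 9.46 in control tumors and 17.5 to 21.6 in tumors labeled HNF4G-KO. It was 13.2 to 26.5 in tumors labeled HNF4G-KO + FOXA1-OE, again above every control and every FOXA1-OE tumor (1.66 to 4.88). These ratios do not depend on the depth of a library. They were chosen after the values were seen, and of 21 exact permutation tests on 3 ratios (two-sided, over mice) the smallest adjusted p was 0.12.

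**Figure D3:**
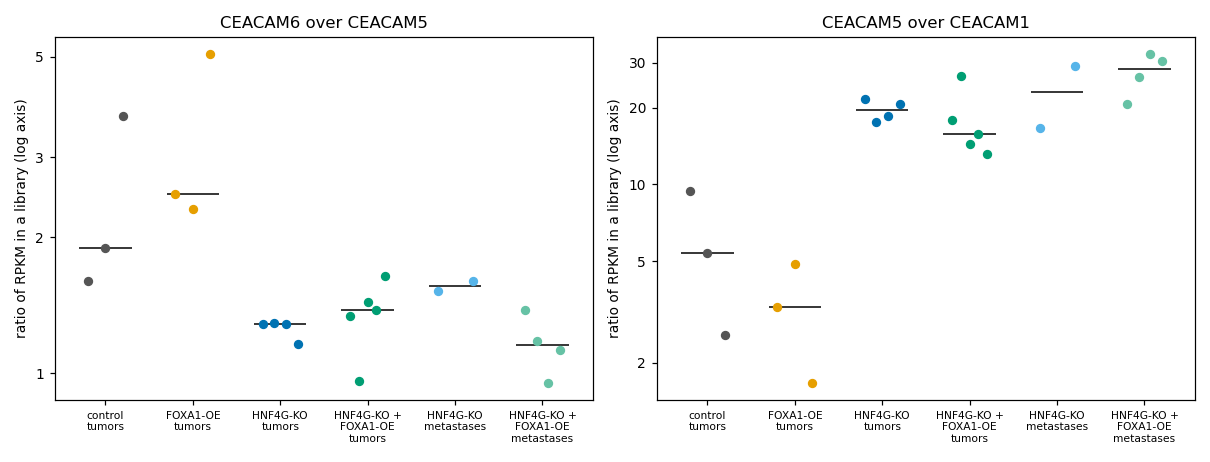
Ratio of RPKM within each library (log axes) of CEACAM6 to CEACAM5 and of CEACAM5 to CEACAM1, by group, with lines at the medians. The CEACAM6 to CEACAM5 ratio is 1.16 to 1.29 in tumors labeled HNF4G-KO against 1.60 to 3.70 in controls, and the CEACAM5 to CEACAM1 ratio is 17.5 to 21.6 against 2.57 to 9.46.

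As a share of all counted reads, CEACAM5 and CEACAM6 together made up 0.0689% to 0.164% in control tumors, 0.0512% to 0.108% in FOXA1-OE tumors and 0.465% to 0.562% in tumors labeled HNF4G-KO. In the 5 tumors labeled HNF4G-KO + FOXA1-OE the share was 0.245% to 0.708%, and in the 6 metastases 0.351% to 0.624%.

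In metastases labeled HNF4G-KO, both from the peritoneum, CEACAM5 was at 538 and 426 RPKM, CEACAM6 at 816 and 681 RPKM, CEACAM1 at 32.2 and 14.5 RPKM and CEACAM7 at 1.85 and 0.295 RPKM. All 8 values were below those of every tumor with that label, while those of CEACAM5 and CEACAM6 lay above every control tumor. In 21% of the genes tested the metastases lay below the tumors in the same way. The differences were -0.58 for CEACAM5, -0.26 for CEACAM6, -0.73 for CEACAM1 and -1.40 for CEACAM7 on the log2 scale, with adjusted p of 0.471, 0.739, 0.342 and 0.282 (limma). Members called were 0 of 4, against 0.0426% of all genes, and 2 metastases against 4 tumors cannot give an exact permutation p under 0.133. Both metastases came from mice whose tumors are among the 4, a pairing that neither the reported fit nor the permutation test used. With mouse as a block, 0 members were called. Metastasis 2, the lower in all 4 genes, had the highest sum of the 12 host stroma markers (390 RPKM, against 72.8 RPKM in metastasis 1). Its part in the result was not tested. With the mean log2(RPKM + 1) of the stroma markers as a covariate the differences were -0.40 for CEACAM5, -0.02 for CEACAM6, -0.14 for CEACAM1 and -0.71 for CEACAM7, again with none called. Without metastasis 2 and the tumor of its mouse they were -0.38, -0.14, -0.17 and -0.73 in the same order, and without metastasis 1 and its tumor they were -0.80, -0.43, -1.27 and -2.07. The 8 epithelial markers summed to 4028 RPKM in metastasis 2, 3946 RPKM in metastasis 1 and 3303 to 4011 RPKM in the tumors with that label. The ratio of CEACAM6 to CEACAM1 was 46.9 in metastasis 2 and 24.0 in the tumor of its mouse. In metastasis 1 it was 25.4, and 22.6 in the tumor of its mouse. Whether these bulk samples held fewer tumor cells or less RNA per tumor cell was not tested.

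In metastases labeled HNF4G-KO + FOXA1-OE, from spleen, peritoneal fat (2) and peritoneum in that order, CEACAM5 was at 653, 799, 669 and 919 RPKM and CEACAM6 at 902, 941, 636 and 1035 RPKM. CEACAM1 was at 31.4, 30.1, 20.5 and 30.2 RPKM and CEACAM7 at 0.792, 0.456, 1.91 and 0.634 RPKM. The range of each gene overlapped with that of the primary tumors. The differences were 0.68 (95% interval 0.03 to 1.34, adjusted p = 0.507) for CEACAM5, 0.37 for CEACAM6, -0.11 for CEACAM1 and -0.62 for CEACAM7 (limma), with 0 of 4 called against 0.00709% of all genes. Only 1 of these 4 libraries had FOXA1 mRNA above the range of tumors labeled HNF4G-KO (1.26 to 1.87 RPKM), so by that reference the others cannot be taken as showing FOXA1-OE. Metastases labeled HNF4G-KO had FOXA1 mRNA at 0.362 and 0.602 RPKM, against 0.535, 17.9, 1.3 and 1.56 RPKM in these 4. The reading thus depends on the reference. In metastases labeled HNF4G-KO + FOXA1-OE the ratio of CEACAM5 to CEACAM1 was 20.8 to 32.6.

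Tumor and metastasis of the same mouse could be set side by side in 4 mice, which gave 5 pairs, since the spleen and fat metastases share a tumor. CEACAM7 was lower in the metastasis in 4 of the 5, from 6.80 RPKM in tumor 1 labeled HNF4G-KO + FOXA1-OE to 0.792 RPKM in the spleen and 0.456 RPKM in the peritoneal fat, from 5.23 to 0.295 RPKM and from 3.13 to 1.85 RPKM in the mice labeled HNF4G-KO. In the fifth, the mouse of tumor 4 labeled HNF4G-KO + FOXA1-OE, CEACAM7 was at 0.577 RPKM in the tumor and 0.634 RPKM in the peritoneum. In that mouse CEACAM5 was at 362 RPKM in the tumor and 919 RPKM in the metastasis, and CEACAM6 at 500 and 1035 RPKM. In the other pairs CEACAM6 was lower in the metastasis, by 0.01 to 0.38 on the log2 scale. CEACAM5 differed there by -0.25 and -0.84 in the mice labeled HNF4G-KO. In the mouse of tumor 1 labeled HNF4G-KO + FOXA1-OE it differed by -0.24 in the spleen and 0.05 in the peritoneal fat. CEACAM1 was lower in the metastasis in the same 4 pairs as CEACAM7, by 0.18 to 1.29 on the log2 scale. It was 0.39 higher in the metastasis of the mouse of tumor 4 labeled HNF4G-KO + FOXA1-OE.

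**Figure D4:**
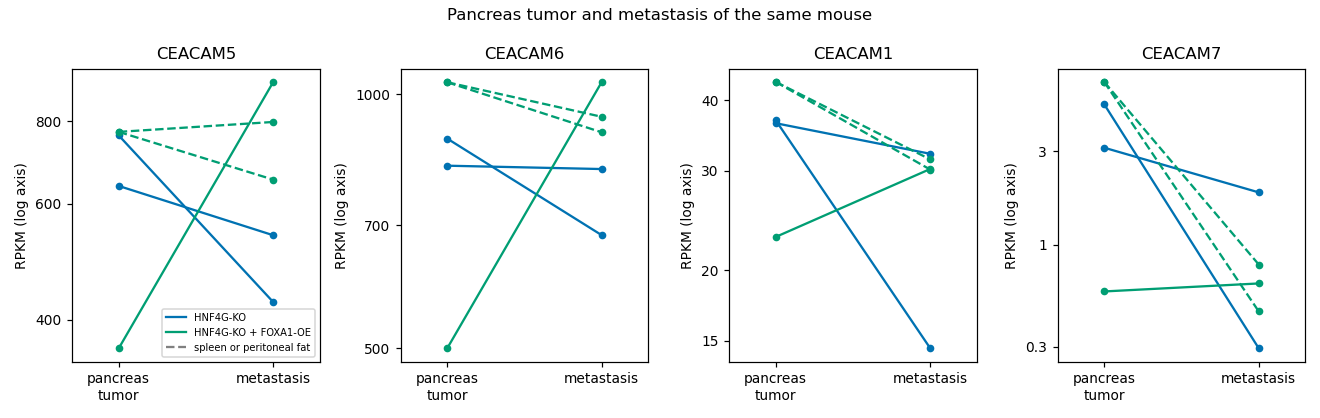
RPKM (log axes) in the pancreas tumor and the metastasis of the same mouse, with a line for each pair. Blue lines are mice labeled HNF4G-KO, green lines mice labeled HNF4G-KO + FOXA1-OE, and dashed lines metastases of spleen or peritoneal fat, both from the same mouse. CEACAM7, CEACAM6 and CEACAM1 are lower in the metastasis in the same 4 of 5 pairs. CEACAM5 goes from 362 to 919 RPKM in the mouse of tumor 4 labeled HNF4G-KO + FOXA1-OE and differs by -0.84 to 0.05 on the log2 scale in the other pairs.

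Ordered by group means, CEACAM5 stood at 770 ± 131 RPKM in metastases labeled HNF4G-KO + FOXA1-OE (SD, n = 3 mice), 716 RPKM in tumors labeled HNF4G-KO, 512 ± 223 RPKM in tumors labeled HNF4G-KO + FOXA1-OE (n = 4 mice), 482 ± 79.2 RPKM in metastases labeled HNF4G-KO (n = 2), 118 RPKM in controls and 63.8 ± 38.8 RPKM in FOXA1-OE tumors (n = 3). Neighbors in this order differ by less than the larger of their SDs, except at the step from 482 to 118 RPKM, which exceeds the SD of every group. CEACAM6 had the same lower pair, at 231 and 176 ± 56.3 RPKM (n = 3), and 686 to 898 RPKM in the other groups. For CEACAM1 the range of group means was 18.6 to 36.6 RPKM, and for CEACAM7 0.0205 to 4.14 RPKM, with the tumors labeled HNF4G-KO first in both.

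Over the 21 samples the log2(RPKM + 1) of CEACAM5 and CEACAM6 had a correlation of 0.982, and of 0.891 after the group means were taken out. Every other pair had a correlation of at least 0.697. With HNF4G mRNA the members had correlations of 0.633 to 0.774, and of 0.353 to 0.641 after the group means were taken out. With FOXA1 mRNA they had correlations of -0.024 to 0.173. These are descriptions, since samples share mice, libraries and groups.

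The genes whose pattern over the 21 samples was most like that of each member were found among 14229 genes whose mean RPKM reached 1, by the correlation of log2(RPKM + 1). For CEACAM5 they were NPNT (0.964, an extracellular matrix protein), CCDC68 (0.964) and SYTL2 (0.961, which binds Rab27 on secretory vesicles). For CEACAM6 they were CCDC68 (0.953), SYTL2 (0.948) and PRR15 (0.946). For CEACAM1 they were GPA33 (0.921, a surface antigen of intestinal epithelium), LAMP3 (0.919, a lysosomal membrane protein) and ATP10B (0.901, a lipid flippase). For CEACAM7 they were SLC11A2 (0.955, the divalent metal ion transporter), GPA33 (0.89) and WIF1 (0.859, a secreted WNT inhibitor). SYTL2 was at 3.72 RPKM in controls and 15.5 RPKM in tumors labeled HNF4G-KO, and GPA33 at 1.15 and 6.61 RPKM.

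The other genes of the family were mostly low. Of 18 listed CEACAM and PSG genes, the latter pregnancy-specific glycoproteins, only CEACAM19 passed the filter in primary tumors. It fell by 0.61 on the log2 scale in tumors labeled HNF4G-KO against control (adjusted p = 0.0242, limma), at 1.71 against 0.77 RPKM, the opposite direction to the 4 members. CEACAM18 had means of 0.179 RPKM in controls, 0 in FOXA1-OE tumors, 1.32 in tumors labeled HNF4G-KO and 1.44 in tumors labeled HNF4G-KO + FOXA1-OE, and was not tested in primary tumors. CEACAM3, a granulocyte receptor next to CEACAM6, did not exceed 0.295 RPKM in any sample and CEACAM8, the granulocyte marker next to CEACAM1, did not exceed 0.102 RPKM.

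Of the 37 protein-coding genes that lie between the 4 or nearest to them on either side, 13 were tested, and none was called in any of the 8 comparisons. Between tumors labeled HNF4G-KO and control this is 0 of 13 where 12.2% of all genes were called. The other 24 were too low to be tested, among them ENSG00000267881 (0.0347 RPKM in controls and 0.391 RPKM in tumors labeled HNF4G-KO), which shares sequence with CEACAM5 and CEACAM6. The median difference of the 13 tested genes between tumors labeled HNF4G-KO and control was -0.26, against 0.015 for all genes. RPS19, the ribosomal protein gene and the most abundant of them, was at 167 RPKM in controls and 74.7 RPKM in tumors labeled HNF4G-KO (adjusted p = 0.0582).

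**Figure D5:**
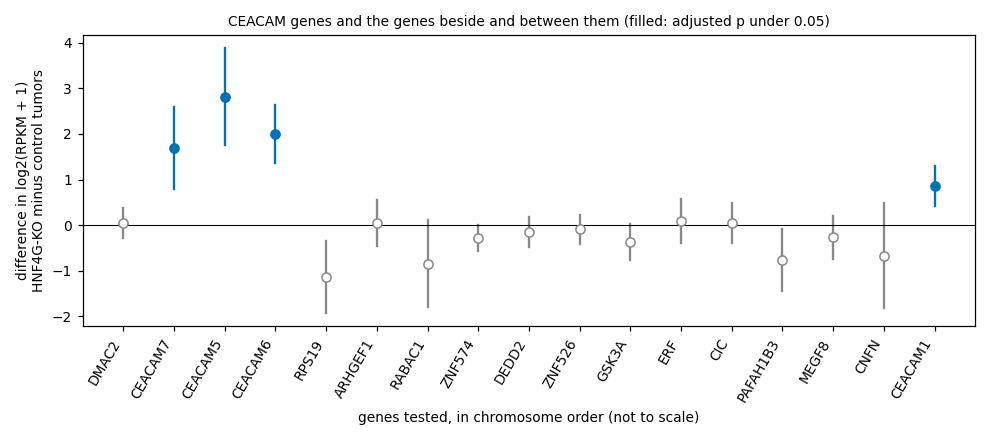
Difference in log2(RPKM + 1) between tumors labeled HNF4G-KO and control tumors, with 95% intervals, for the 4 CEACAM genes (blue) and the 13 tested genes beside and between them (gray), in chromosome order and not to scale. Filled points have an adjusted p under 0.05. The 4 members are filled and above 0, from 0.86 to 2.82, and none of the others is filled.

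Genes that act with CEACAM proteins were followed in 4 lists. Of 13 listed partners of CEACAM1, 12 were tested and 1 was called between tumors labeled HNF4G-KO and control, where 12.2% of all genes were called (6.18% higher). This was FLNA, filamin A, which links membrane proteins to actin and fell by 1.40 (adjusted p = 0.00118). FLNA was also lower in tumors labeled HNF4G-KO + FOXA1-OE, by comparison with control (adjusted p = 0.0082) and with FOXA1-OE tumors (adjusted p = 0.0141). PTPN6 and PTPN11, which encode SHP-1 and SHP-2, were at 5.54 and 18.5 RPKM in controls and 5.67 and 30.9 RPKM in tumors labeled HNF4G-KO and were not called. The median of the list was 0.11, against 0.015 for all genes.

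Of 29 genes that build, attach or remodel GPI anchors, 26 were tested, and the comparison of HNF4G-KO with control called 2 of them higher (6.18% of all genes were), MPPE1 by 0.65 (adjusted p = 0.0397) and PIGL by 0.38 (adjusted p = 0.0498). The median was 0.01 and no gene of the list was called in the other 7 comparisons. Of 28 other GPI-anchored surface proteins, 21 were tested, and 2 were called higher and 1 lower, beside 12.2% of all genes in either direction. BST1, an ectoenzyme, rose by 1.25 (adjusted p = 0.00221) and CD24, a mucin-like adhesion protein, by 1.20 (adjusted p = 0.00309), and GPC1, a heparan sulfate proteoglycan, fell by 0.73 (adjusted p = 0.00895). The median of this list was -0.15. In tumors labeled HNF4G-KO + FOXA1-OE against FOXA1-OE, 4 were called higher and 3 lower, beside 7.86% of all genes in either direction, with LY6D first (4.07, adjusted p = 0.00121). BST1 was also the only one called for the interaction (-1.77, adjusted p = 0.0419), where CEACAM members were not.

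Of 6 factors known for binding CEACAM promoters, all tested, 1 was called, beside 12.2% of all genes. This was SP1, which rose by 0.82 on the log2 scale in tumors labeled HNF4G-KO against control (adjusted p = 0.00933, limma), at 35.9 against 19.9 RPKM. USF1 differed by -0.20 (adjusted p = 0.604) and USF2 by -0.34 (adjusted p = 0.165). None of the 6 was called in the other 7 comparisons.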

How the data were processed

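RNA was sequenced from xenografts of human HPAF-II cells (stranded libraries from mRNA). The authors aligned reads with STAR 2.6.1a and counted them with featureCounts 2.0.4, as the submitters' processing notes list, and deposited RPKM values for 58719 genes. The labels name hg38 and the study's methods GRCh37. Coordinates here are those of GRCh38, and 58250 gene identifiers were matched to GENCODE 44 when the version was ignored. Data of mouse KPC lines were not used here. Depth and whole reads were recovered from the steps of the RPKM values (at least 99.7% of low values lay within 0.01 of a whole read).

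log2(RPKM + 1) was analyzed with limma 3.58.1 in R 4.3.3 (eBayes with a trend) for genes whose mean RPKM reached 1, with Benjamini-Hochberg adjustment over all genes and a threshold of 0.05. All 4 primary tumor groups were fitted together, and HNF4G-KO tumors and metastases, with and without FOXA1-OE, in a second fit. Log2 values of tumors, or of metastases, that share a mouse were averaged. A count model was not used, since the table holds RPKM. Where nothing says otherwise p-values measure the spread between these mice. Fold changes by group means and exact permutation tests used Python 3.11.15 and scipy 1.17.1. The fit was tested on simulated data. A tumor and a metastasis of a mouse are paired by their animal (correlations of deviations 0.25, 0.3, 0.27 and -0.03), while tumors of the same number do not pair (-0.53 to 0.5). The reported fit of metastases and the permutation tests did not use this pairing, and the fit blocked by mouse did.

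The genes, the lists and the rule for genes named (up to 4 per list, called genes of smallest adjusted p first, otherwise those of highest mean RPKM) were chosen with earlier results of these data known. PTPN6, PTPN11, USF1 and USF2 were named outside this rule. Alternatives were a pseudocount of 0.1, no filter, samples shifted to the same median, only the groups compared, samples kept separate, eBayes without a trend (interaction), the tumor number or mouse as a block, host stroma as a covariate, and leaving out each mouse or the spleen metastasis.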

Additional observations from a re-analysis of the deposited data

Results flagged for a closer look

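In metastases labeled HNF4G-KO + FOXA1-OE, CEACAM1 was at 20.5 RPKM in metastasis 3, from peritoneal fat, far below the other three at 30.1 to 31.4 RPKM. Its gap to the nearest sample was 0.882 of the range, past Dixon's limit for 4 samples. Chance gives about 1 such sample in 20 groups, and 12 groups of 4 or 5 samples were looked at. This library had the lowest depth of all (33.1 M reads), and its host stroma sum was 214 RPKM against 70.2 to 209 RPKM in the other three. The part of these in the value was not tested.

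For CEACAM5 the metastases and tumors differed in opposite directions in the 2 labels. The mean difference was -0.576 on the log2 scale with HNF4G-KO, where both metastases were below the mean of the tumors, and 0.684 with HNF4G-KO + FOXA1-OE, where all mice with metastases were above it. Against the tumor of the same mouse, CEACAM5 with HNF4G-KO + FOXA1-OE differed by 1.34 in the mouse of tumor 4. In the mouse of tumor 1 it differed by -0.24 and 0.05. The difference between the labels was not tested.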

How the results depend on the processing

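In tumors labeled HNF4G-KO against control, CEACAM5 and CEACAM6 were called in each of 14 alternatives, CEACAM1 in 11 and CEACAM7 in 8. The number of members called was 2 to 4 when a mouse was left out (leave-one-out). For HNF4G-KO + FOXA1-OE against control it was 1 with no filter, 0 when only the groups compared were fitted and 0 to 2 when a mouse was left out. For HNF4G-KO + FOXA1-OE against FOXA1-OE it was 1 when only the groups compared were fitted and 2 to 4 when a mouse was left out. With tumor number as a replicate block and tumors of the same mouse kept separate, 4 members were called for HNF4G-KO against control, 2 for HNF4G-KO + FOXA1-OE against control and 4 against FOXA1-OE, where CEACAM1 had a value of 0.81 (adjusted p = 0.0259) and 2414 genes were called. Keeping the tumors separate with no block called 1397 genes there, against 1122 as reported, and 2 members. Blocked by mouse, 0 members were called in metastases, and genes called for HNF4G-KO went from 6 to 0. The tumors share only a number, and against the reported fit the block changed no other call of a member. Against the fit of separate tumors with no block, it took members called from 3 to 4 for HNF4G-KO against control. For HNF4G-KO + FOXA1-OE against FOXA1-OE it took them from 2 to 4.

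Directions changed only for differences that no fit called. With host stroma as a covariate CEACAM1 was at 0.34 in metastases labeled HNF4G-KO + FOXA1-OE, and between -0.30 and 0.07 when a mouse was left out (0.07 without metastasis 3), and the interaction of CEACAM5 was at -0.41. The interaction of CEACAM6 was at 0.09 with the replicate block and that of CEACAM7 at 0.86 with a pseudocount of 0.1. Leaving out a mouse gave interactions of -0.25 to 0.79 for CEACAM5, -0.32 to 0.19 for CEACAM6 and -0.57 to 0.20 for CEACAM7. The cause of these changes was not tested. Depth limits CEACAM7, with 1 to 4 reads in FOXA1-OE tumors. With 2 to 4 mice a group, the interval of CEACAM5 in FOXA1-OE tumors reached from -1.97 to 0.29.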
